A study of Mus musculus with 8 samples.

Results

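Schwann cell and myelin genes were followed in RNA sequencing data of mouse sensory neurons. The group holds 8 genes of the 22609 gene symbols in the count files, namely Sox10, Egr2, Mbp, Pmp22, Mal, Cnp, Mag and Prx. They were picked by symbol, as myelin proteins and transcription factors of the Schwann cell lineage, after the difference between the sexes in these libraries was known. Their levels by sex are therefore given as a description. Counts of members past a threshold stand beside the share of all genes that passed it, and nothing is read from them.

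The study asked which genes differ between female and male sensory neurons. Neurons of the dorsal root ganglia (DRG), which hold the cell bodies of sensory nerves beside the spinal cord, were back-labelled from hindpaw skin and thigh muscle with the fluorescent lectin WGA-488 and isolated by fluorescence-activated cell sorting. RNA was amplified with the SMART-seq2 protocol and sequenced. There were 4 female and 4 male libraries. The females were in estrous phase. Both groups were young adult, naïve C57BL/6J mice with no treatment other than the injection of the label, and ganglia L3 to L5 of the left and right sides went into each preparation. The cells were chosen by the label they carried, and no gene marks the sort. The paper describes 4 samples for each sex with such ganglia of both sides in every sample, whereas the labels number the libraries without naming animals. The p-values below measure only the spread between these libraries, part of which may be technical.

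Schwann cells wrap peripheral axons, and those around large axons build compact myelin. Sox10 encodes a transcription factor that the whole lineage needs, and satellite glia around the neuronal cell bodies express it too. Together with Egr2, also called Krox20, it switches on genes for myelin proteins and for enzymes of myelin lipids.

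Each library held 4.80 to 7.33 M reads in genes (1 M is 1000000 reads), and 3 reads, taken as the smallest level a library can show, corresponded to 0.409 to 0.625 counts per 1000000 gene reads (CPM). Genes that define neurons were abundant in all 8 libraries. A pan-neuronal list of 15 genes summed to 18974 to 24132 CPM in females and 19761 to 20846 CPM in males, with Tubb3, a neuronal tubulin, as its most abundant gene. A list of 11 satellite glia genes, led by the lipid carrier Apoe, summed to 10152 to 13092 CPM in females. In males it summed to 7475 to 9860 CPM in replicates 2 to 4 and to 4055 CPM in male replicate 1. Transcripts of the satellite glia list were thus present in every library beside those of neurons. Female replicate 4 stood apart from the other females, with a chi-square per degree of freedom over genes of 30.1 to 44.9 against each of them, where all other pairs of a sex had 2.82 to 12.1. Its deviations also ran with transcript length across 12129 genes (Spearman's rho -0.62), against 0.036 to 0.25 in the other females and 0.0079 to 0.067 in males. In such bulk libraries, fewer cells of a type and less RNA per cell cannot be told apart.

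Upstream sequences of the members were searched for letters that Sox and Egr proteins bind, and the windows with a match are shown. RefSeq promoters of build GRCm38.p6 were matched for 6 of the 8 members, and the window used here runs from 250 to 51 bases before the start site, 5′ to 3′ on the gene's strand. Capitals mark the letters ACAAAG, the core that Sox proteins bind, on either strand. Cnp and Mag hold a match and Mal, shown for comparison, holds none.
Cnp, chr11:100574689-100574888, plus strand: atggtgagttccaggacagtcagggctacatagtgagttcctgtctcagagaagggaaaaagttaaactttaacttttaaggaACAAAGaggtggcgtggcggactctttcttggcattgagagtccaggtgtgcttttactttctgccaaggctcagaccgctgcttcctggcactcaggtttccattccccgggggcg
Mag, chr7:30914973-30915172, minus strand: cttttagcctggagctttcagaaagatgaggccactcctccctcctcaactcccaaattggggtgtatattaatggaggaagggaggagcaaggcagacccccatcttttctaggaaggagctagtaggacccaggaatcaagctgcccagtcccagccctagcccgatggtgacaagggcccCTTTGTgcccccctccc
Mal, chr2:127656746-127656945, minus strand: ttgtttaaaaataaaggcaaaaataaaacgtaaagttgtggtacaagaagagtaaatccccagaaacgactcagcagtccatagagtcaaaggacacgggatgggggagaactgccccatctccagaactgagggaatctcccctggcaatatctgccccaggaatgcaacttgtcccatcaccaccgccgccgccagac
The match in Cnp begins 167 bases before the start site. The match in Mag begins 67 bases before it and lies on the opposite strand. Thus 2 of 6 promoters held these letters, against 13.6% of 27025 promoters with a window of the same 200 bases. The letters GCGNGGGCG, a form of the site that Egr proteins bind, were searched on both strands and occurred in 0 of the 6 windows and in 2.93% of all promoters. A match of the first motif and a match of the second can overlap by an end base only. A match is a description of the letters and does not show binding.

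Sox10 was the transcription factor with the wider gap between the sexes. Its gene lies on chromosome 15, 78985343 to 78994920, minus strand (build mm9, as all gene positions here), and is protein-coding. Its level was 31.2, 79.3, 104.8 and 77.2 CPM in female replicates 1 to 4 and 11.2, 21.7, 31.5 and 28.7 CPM in male replicates 1 to 4. Female replicates 2 to 4 lay above every male library, whereas female replicate 1 lay just below the highest male. Females averaged 73.1 ± 30.6 CPM and males 23.3 ± 9.06 CPM (SD, n = 4 each), a ratio of 3.14 and a log2 fold change, female over male, of 1.64 ± 0.38 (SE). Behind these levels stood 227 to 503 reads in each female library and 82 to 194 in each male library.

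Egr2 was low, and its level followed the library more than the sex. This gene (chromosome 10, 66998223 to 67004936, plus strand) had 2.75, 1.39, 12.3 and 8.09 CPM in female replicates 1 to 4 and 4.78, 9.21, 2.97 and 2.96 CPM in male replicates 1 to 4. Each sex held libraries at both ends, and the highest library was 8.85 times the lowest. The log2 fold change was 0.24 ± 0.60 (SE), an error wider than the difference, and it turned to -0.33 without female replicate 3.

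**Figure D1:**
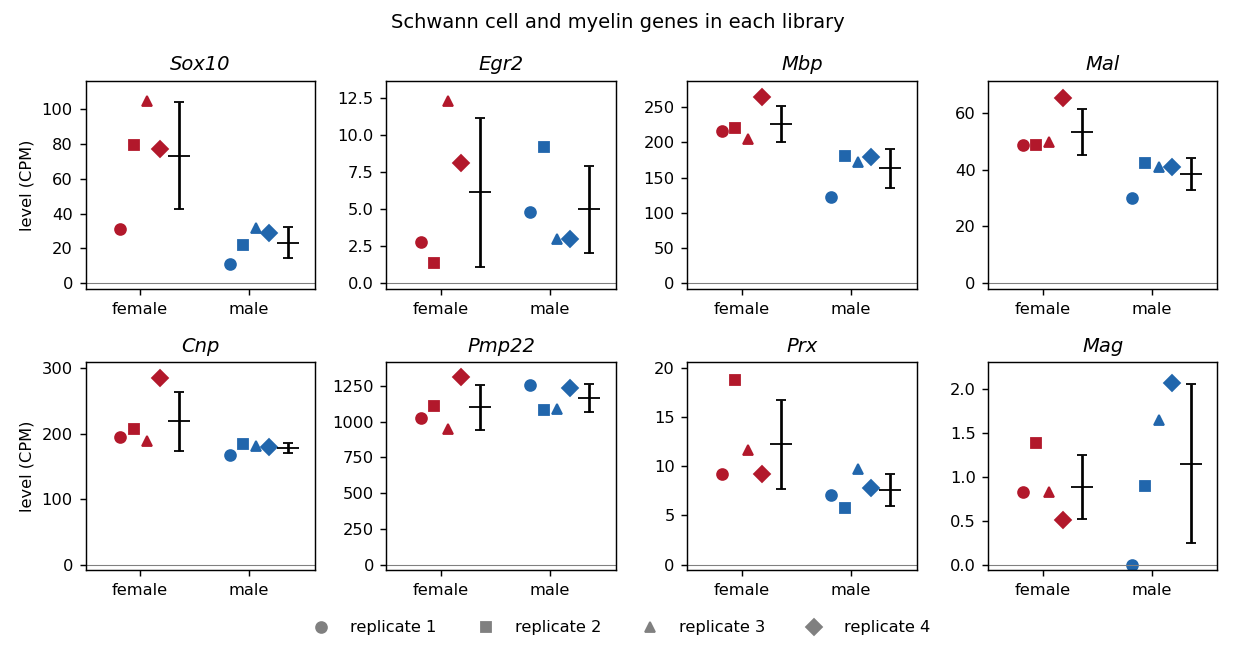
Level of each of the 8 genes in CPM (y axis, linear) in the 4 female (red) and 4 male (blue) libraries, with marker shape giving the replicate and the black bar the mean and SD. Sox10 is at 77.2 CPM or above in 3 females and at 31.5 CPM or below in every male, Mbp, Mal and Cnp do not overlap between the sexes, and Pmp22, Egr2, Prx and Mag overlap.

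Mbp, Mal and Cnp differed less between the sexes than Sox10 but did not overlap. Mbp (chromosome 18, 82644538 to 82755029, plus strand) encodes myelin basic protein, which holds the cytoplasmic faces of compact myelin together. It was at 216.5, 220.9, 204.4 and 264.0 CPM in female replicates 1 to 4 and at 122.2, 180.2, 172.9 and 178.7 CPM in male replicates 1 to 4. Every female library lay above every male library, with male replicate 1 the lowest. The means were 226 ± 26.0 and 163 ± 27.7 CPM (SD, n = 4 each), and the log2 fold change was 0.45 ± 0.14 (SE). The annotation gives Mbp 16 transcripts, and counts per gene cannot separate those of myelin from the longer golli transcripts that neurons can make.

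Mal (chromosome 2, 127458962 to 127482431, minus strand) encodes a proteolipid of compact myelin membranes that acts in membrane trafficking. It had 48.8, 48.8, 49.8 and 65.4 CPM in female replicates 1 to 4 and 30.0, 42.3, 40.8 and 40.8 CPM in male replicates 1 to 4. The order of libraries resembled that of Mbp, with male replicate 1 lowest and female replicate 4 highest. The log2 fold change was 0.45 ± 0.15 (SE), and 0.34 without female replicate 4.

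Cnp (chromosome 11, 100436218 to 100453043, plus strand) encodes an enzyme of the non-compact, cytoplasm-filled parts of myelin. It was at 194.7, 207.0, 188.1 and 285.4 CPM in female replicates 1 to 4 and at 167.7, 184.2, 181.6 and 179.3 CPM in male replicates 1 to 4. The lowest female exceeded the highest male by little, and female replicate 4 stood above the rest. The log2 fold change was 0.28 ± 0.14 (SE), and 0.13 without female replicate 4. Cnp shares 154 exon bases (4.23%) with Dnajc7 on the opposite strand, and SMART-seq2 does not mark the strand, so reads there cannot be assigned.

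Pmp22 was the most abundant member and the one tested member with a lower mean in females. It encodes a tetraspan membrane protein of compact peripheral myelin that other cells make too, and lies on chromosome 11, 62942484 to 62973049, plus strand. Female replicates 1 to 4 had 1028, 1111, 947 and 1315 CPM and male replicates 1 to 4 had 1259, 1078, 1087 and 1237 CPM. The sexes overlapped throughout, and the log2 fold change was -0.10 ± 0.12 (SE). Male replicate 1, the lowest male library for Mbp and Mal, was the highest male library for Pmp22, at 111% of the mean of the other males, against 69.0% for Mbp, 72.7% for Mal and 92.3% for Cnp.

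Prx was low and Mag near the lower end of detection. Prx (chromosome 7, 28284343 to 28305233, plus strand) encodes periaxin, which ties the outer Schwann cell membrane to the basal lamina. It had 9.21, 18.7, 11.7 and 9.26 CPM in female replicates 1 to 4 and 7.09, 5.79, 9.74 and 7.84 CPM in male replicates 1 to 4, with a log2 fold change of 0.66 ± 0.27 (SE), or 0.37 without female replicate 2. Female replicates 1 and 4 lay below the highest male, so the sexes overlapped. Mag (chromosome 7, 31684202 to 31699851, minus strand) encodes an adhesion protein of the innermost wrap that faces the axon. It had 6, 8, 4 and 3 reads in female replicates 1 to 4 and 0, 6, 10 and 14 reads in male replicates 1 to 4, which is 0.888 ± 0.367 and 1.15 ± 0.911 CPM (SD, n = 4 each). Mag did not pass the filter on low counts, and the 0 reads of male replicate 1 allow a level of up to 0.409 CPM.

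Set per length, as CPM per 1000 exon bases (RPKM), the order of the 8 members was led by Pmp22. The mean RPKM over 8 libraries was 481 for Pmp22, 54.5 for Cnp, 23.2 for Mbp, 17.8 for Sox10, 16.5 for Mal, 1.78 for Prx, 1.63 for Egr2 and 0.421 for Mag. Pmp22 lay above Cnp, Cnp above Mbp, and Mal above Prx in all 8 libraries with no overlap of their ranges. The place of Sox10 differed by sex, at 26.9 RPKM in females beside 26.9 for Mbp and 19.1 for Mal, and at 8.58 RPKM in males below 13.9 for Mal. Over all libraries Mbp, Sox10 and Mal were neighbours with overlapping ranges, as Mbp exceeded Sox10 in 6 of 8 libraries and Sox10 exceeded Mal in 3 of 8. Prx and Egr2 overlapped as well (Prx higher in 4 of 8), and so did Egr2 and Mag (Egr2 higher in 7 of 8). A level per length of Mbp takes all exons of its 16 transcripts as its length and so understates any short form.

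Of the 8 members, 7 passed the filter on low counts. Of these, 6 had a log2 fold change above 0, as did 50.7% of the 12512 genes tested. Female and male levels had no overlap for 3 members (Mbp, Mal and Cnp), all higher in females. Among all genes tested, 5.47% had no overlap, 2.98% higher in females and 2.49% higher in males. An unadjusted edgeR p-value under 0.05 was reached by 4 members (Sox10, Mbp, Prx and Mal), all higher in females. In the main fit 7.07% of all genes tested reached it, 4.43% higher in females and 2.64% higher in males. In the fits that dropped a library, Sox10, Mbp and Mal reached it every time. Prx did not without female replicate 2 or 3, without male replicate 1, 2 or 4, or with the replicate number as a block. Cnp reached it without female replicate 1 or 3. Pmp22, with a log2 fold change of -0.20, reached it in the male direction without female replicate 4, as 724 of 12718 genes did. Of all genes in the fits that dropped a library, 3.15% (without male replicate 1) to 5.68% (without female replicate 4) reached it higher in females. The members were chosen with the difference between the sexes known, so their return in these fits is no support for it. After adjustment over all genes, 0 members passed with edgeR, as 0.04% of genes did, and 0 with limma-voom, as 0.032% did. Of the members, Sox10 passed with DESeq2 (0.336% of genes), in edgeR without female replicate 1 (0.621%) and in edgeR with the replicate number as a block (0.00799%). The median log2 fold change was 0.45 over the 7 members and 0.0034 over all genes tested.

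**Figure D2:**
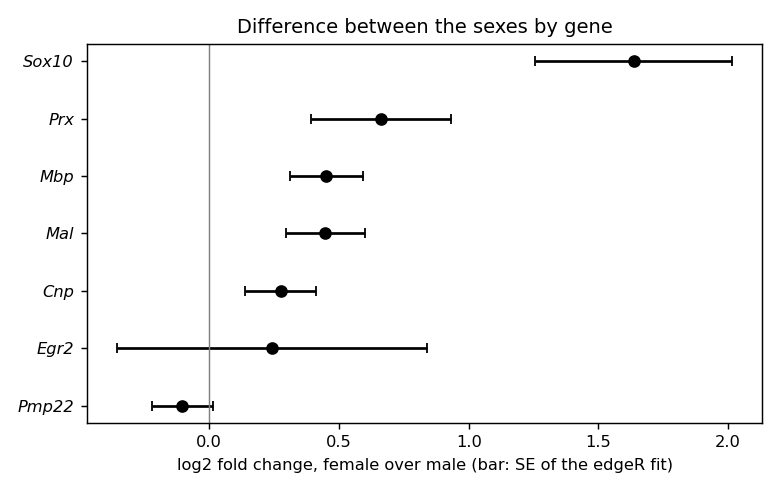
Log2 fold change, female over male (x axis), of the 7 members that passed the filter, with bars of 1 SE from the edgeR fit. Sox10 stands at 1.64, Prx, Mbp, Mal and Cnp lie between 0.28 and 0.66, and Egr2 and Pmp22 lie within 1 SE of 0.

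Other genes of the pathway came from lists of myelin proteins and lipid enzymes, of Schwann cell transcription factors and of the neuregulin signal from axons to Schwann cells. With edgeR, DESeq2 and limma-voom 0 genes of these lists passed after adjustment, and 3 genes of 29 tested had an unadjusted edgeR p-value under 0.05, all higher in females, as 4.43% of all genes were. Among myelin genes it was 1 of 10 tested, Gal3st1, the sulfotransferase that makes the myelin lipid sulfatide, at 6.49 ± 0.759 and 3.66 ± 1.12 CPM in females and males (SD, n = 4 each; edgeR adjusted p-value 0.637). Among transcription factors it was 1 of 10 tested, Nab2, a cofactor of Egr proteins, at 4.66 ± 1.99 and 2.28 ± 0.439 CPM (SD, n = 4 each; edgeR adjusted p-value 0.637). In the neuregulin list it was 1 of 9 tested, Erbb2, a neuregulin co-receptor, at 10.6 ± 2.56 and 6.44 ± 1.98 CPM (SD, n = 4 each; edgeR adjusted p-value 0.657). Median log2 fold changes were 0.21, 0.064 and -0.053 for these lists, and the most abundant genes were Cd9, Jun and Adam22. A list of non-myelinating Schwann cells, led by Ngfr, had 0 of 7 tested genes at that threshold and a median of -0.15.

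The sum of the 17 listed myelin genes in the files was 1461 to 1652 CPM in females and 1590 to 1818 CPM in males. Cd9, which many cells make, gave 79.5% of this sum, and the other 16 genes summed to 217 to 432 CPM in females and 192 to 363 CPM in males, with overlap either way. Genes that define oligodendrocytes, the myelinating cells of the central nervous system, were at or near 0. Mog, Opalin, Olig2 and Hapln2 had 0 reads in all 8 libraries, and the 8 oligodendrocyte genes summed to 0.337 to 1.56 CPM in females and 0.297 to 1.98 CPM in males. Of the other lists, Mpzl2 and Pax3 also had 0 reads throughout.

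To see which members varied together apart from sex, each library's deviation from the mean of its sex was taken on the log2(CPM + 1) scale and correlated between genes over the 8 libraries. These correlations are descriptions over few points that share their depth and preparation. Mbp and Mal ran closely together, with r of 0.96 (Spearman's rho 0.90) and 0.91 without the 2 libraries farthest from the median. Among 10635 genes of at least 5 CPM, Mal held place 14 in likeness to Mbp, a list led by Polr1d, Ucp2 and Hat1. The satellite glia genes Fabp7 (r = 0.91) and Apoe (r = 0.90) held places 52 and 70. Male replicate 1 was low in both Mbp and Mal, and r between them was 0.93 without it. Cnp had an r of 0.67 with Mbp, a rho of 0.90 as for Mal, and an r of 0.96 without the 2 farthest libraries.

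**Figure D3:**
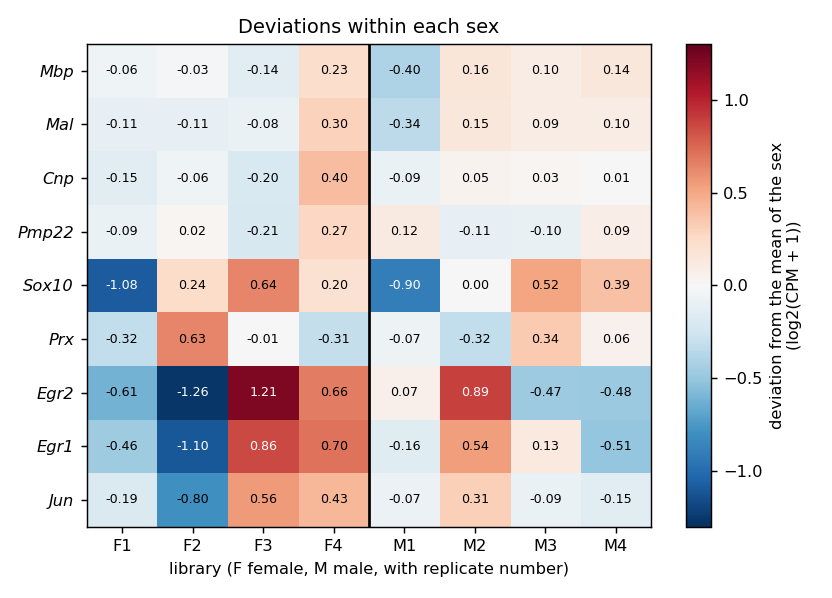
Deviation of each gene from the mean of its sex on the log2(CPM + 1) scale (colour and printed value) in the 4 female (F) and 4 male (M) libraries. Mbp (-0.40) and Mal (-0.34) share a low in M1, Sox10 is low in F1 (-1.08) and M1 (-0.90), Pmp22 is not low in M1 (0.12), and Egr2 shares its pattern with Egr1 and Jun.

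Sox10 followed Mbp and Mal little within a sex. Its r with Mbp was 0.52, but rho was 0.071, and r was -0.61 without female replicate 1 and male replicate 1, the libraries farthest from the median. Without male replicate 1 alone it was -0.0075, and without female replicate 1 alone 0.64, so that the positive value rested on male replicate 1. With Mal the values were 0.55, 0.21 and -0.45, and with Cnp 0.24, -0.024 and -0.51. With Prx they were 0.45, 0.67 and 0.36, positive in each form. The 10 genes most like Sox10 were Ust, 1110032F04Rik, Prkaca, Zranb1, Fgfr1, 6530402F18Rik, Hcn2, St3gal5, Gmeb1 and Atxn7l1, with r from 0.94 to 0.98. Mbp held place 1259 on that scale. Nefh, the heavy neurofilament of large myelinated neurons, held place 17 (r = 0.94, rho 0.67, and 0.43 without the same libraries).

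Egr2 varied with Jun and Egr1, transcription factor genes known to respond fast to stimulation of a cell. Its r was 0.96 with Jun (rho 0.98) and 0.94 with Egr1 (rho 0.93), and these held 0.95 and 0.91 without the 2 libraries farthest from the median. The 10 genes most like it were Nfil3, Socs3, Zfp36, Csrnp1, Bambi, 1810055G02Rik, Jun, Hspa1a, Atf3 and Tpcn2. Its r with Mbp was 0.040. Egr1 had 59.1, 37.7, 149.6 and 133.8 CPM in female replicates 1 to 4 and 71.9, 117.6, 88.0 and 56.4 CPM in male replicates 1 to 4, with its 3 highest libraries the same as those of Egr2. Pmp22 (r = 0.16) and Prx (r = -0.10) did not follow Mbp, and the value of Pmp22 moved to 0.90 without male replicate 1 and to -0.38 without female replicate 4.

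Marker lists of other cells are given beside these levels. With edgeR 0 of their genes passed after adjustment, and with DESeq2 Dcn of the fibroblast list and Kcna2 of the large myelinated neuron list passed, as 0.336% of all genes did. The counts that follow stand beside 4.43% of all genes higher in females at an unadjusted p-value under 0.05 and 50.7% with a log2 fold change above 0. All 11 satellite glia genes had a log2 fold change above 0 (median 0.40), and 2 of them, Apoe and Aldoc, had an unadjusted edgeR p-value under 0.05. The list of large myelinated neurons had 12 of 13 above 0 (median 0.29), summed to 9945 to 15023 CPM in females and 7390 to 11943 CPM in males with Nefl as its most abundant gene, and had 3 genes at that threshold, Nefh, Ntrk3 and Kcna2. Fibroblast genes, led by Apod, summed to 99.4 to 168 CPM in females and 57.2 to 109 CPM in males, with Col1a2, Dcn and Lum of 5 tested at that threshold, all higher in females. Macrophage genes summed to 7.70 to 20.9 CPM in females and 3.96 to 9.51 CPM in males. Of 3 tested, Cd74, the most abundant of the list, and Lyz2 were higher in females at that threshold. The remaining tested gene, C1qb, had a log2 fold change of -0.14. Endothelial genes, led by Cldn5, summed to 4.79 to 19.9 CPM in females and 4.29 to 6.95 CPM in males, with 0 of 1 tested. Female replicate 4 alone gave the 19.9 CPM, with the other females at 4.79 to 7.46 CPM, and it also had 9.26 CPM of Cldn5 and 9.10 CPM of Lyz2, against at most 2.08 and 2.71 CPM in the other females. The pan-neuronal list had 0 of 15 and a median of -0.037. The part of these cells in the levels of the members was not tested.

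**Figure D4:**
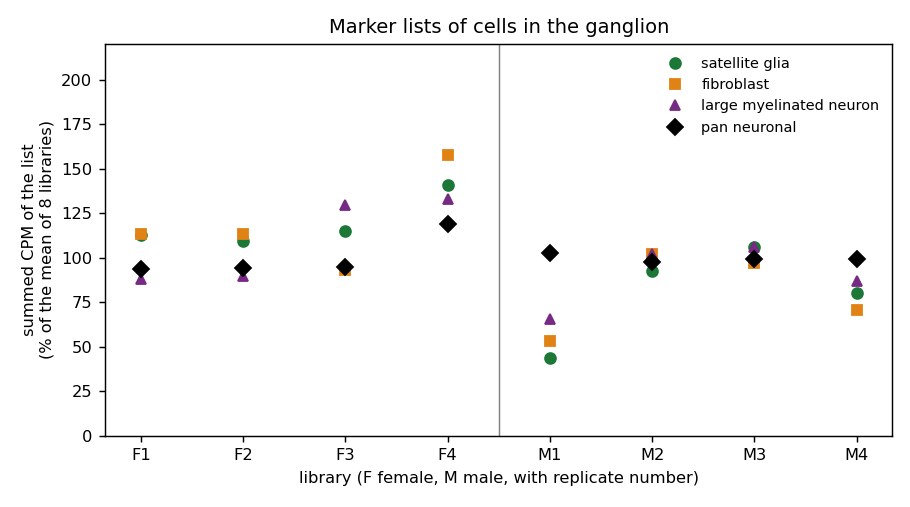
Summed CPM of the satellite glia, fibroblast, large myelinated neuron and pan-neuronal lists in each library, as a percentage of the mean over the 8 libraries (y axis from 0). Satellite glia genes stand at 109% to 141% in the female libraries and at 43.6% in M1, while pan-neuronal genes stay within 93.4% and 119%.

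Set against satellite glia, Sox10 and the myelin genes parted. The log2(CPM + 1) level of each gene was taken relative to the mean of the 11 satellite glia genes in the same library, a measure added after the data were seen. On this measure the difference, female minus male, was 1.14 for Sox10 (pooled SD 0.57), against 1.58 before. It was 0.036 for Mbp (0.27), 0.015 for Mal (0.31) and -0.17 for Cnp (0.42), against 0.48, 0.46 and 0.28 before, so that these differences were smaller than the spread between libraries. Prx was at 0.14 (0.48) and Pmp22 at -0.53 (0.49). Without male replicate 1 the relative differences were 1.09 for Sox10, 0.16 for Mbp, 0.16 for Mal, 0.058 for Cnp, 0.37 for Prx and -0.24 for Pmp22. Without that library the differences before were 1.28, 0.35, 0.35, 0.25, 0.56 and -0.051 in the same order.

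By library, Sox10 lay at -2.64, -1.32, -0.96 and -1.18 relative to the list in female replicates 1 to 4 and at -2.80, -2.97, -2.55 and -2.33 in male replicates 1 to 4. Female replicate 1 fell within the male range, and the other 3 females lay above all males.

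**Figure D5:**
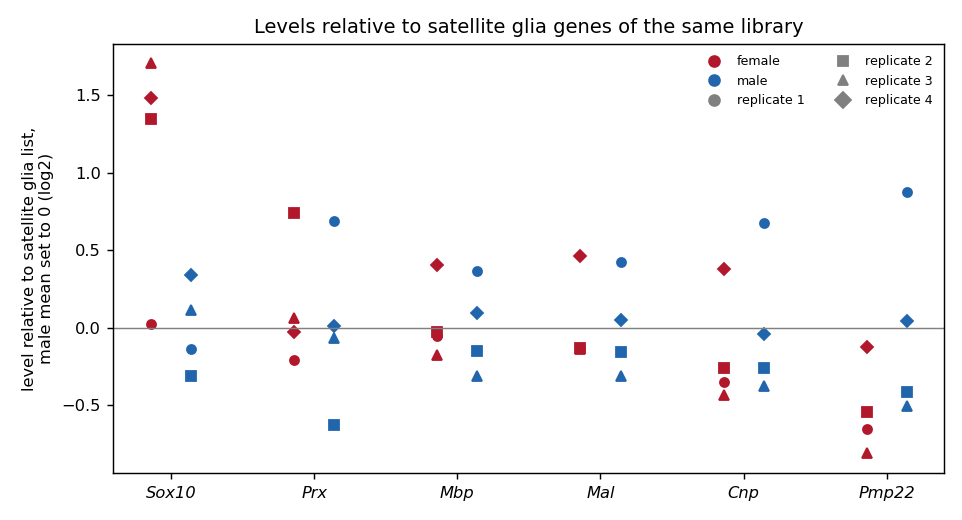
Level of each gene relative to the mean of the satellite glia genes of the same library (log2, y axis), with the male mean of each gene set to 0, for female (red) and male (blue) libraries. Sox10 stands above every male in 3 females, with a mean difference of 1.14, while Mbp and Mal are spread around 0.

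Base composition was the other property that set Sox10 apart from the myelin genes. The longest transcript of Sox10 had a GC content of 61.7%, higher than that of 97.9% of the genes with a value, where the median was 50.4%. The members Egr2, Mbp, Pmp22, Prx, Mal and Cnp had 48.6% to 57.7%. Deviations of each library were taken from the median of each gene over all libraries. Across 12129 genes, which are not independent, they correlated with GC content at a rho of -0.045, 0.029, 0.27 and 0.36 in female replicates 1 to 4 and of -0.19 to -0.12 in males. With transcript length, rho was 0.25, 0.24, 0.036 and -0.62 in female replicates 1 to 4. For a correction, deviations were taken from the mean of each gene, and their median in 20 bins of GC content was removed from each library. The difference of Sox10 on the log2(CPM + 1) scale was then 1.41, and after bins of transcript length it was 1.54. For Mbp, Mal and Cnp the differences were 0.44, 0.46 and 0.19 after GC bins and 0.58, 0.41 and 0.20 after length bins.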

How the data were processed

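RNA of WGA-488-labelled, sorted DRG neurons was measured in 4 female and 4 male libraries, grouped by the sex in their labels. Per the labels, the authors aligned reads to build mm9 with TopHat2, and HTSeq then gave the reads of each gene. The deposited values are raw counts, with no normalization, and tool versions, annotation release and strand option are not given in the sources used here. Summary lines of the counter, mostly reads outside features (57.8% to 60.5% of reads), were left out. PCR copies cannot be told from separate molecules, so the floor of 3 reads covers counting error only.

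Counts were compared in edgeR 4.0.16 (R 4.3.3) by its quasi-likelihood test, with sex alone in the model, TMM scaling, the default filter and Benjamini-Hochberg adjustment over 12518 genes, of which 6 sex-linked genes were not counted. On simulated data the test recovered 69.5% of genes changed by a fold of 2 and 99.5% by a fold of 4. It made 8 and 6 false calls there. Recovery in the real libraries was not tested. Sox10, at a ratio of 3.14 between the sexes, did not pass after adjustment in the main fit. The common biological coefficient of variation was 0.205. CPM used gene reads, and gene positions and exon lengths came from GENCODE M1 (21627 symbols matched). Every pair of libraries of a sex differed by more than counting noise, so none was merged; repeat amplifications of a sample could differ as much. The alternatives tried were limma-voom (limma 3.58.1), DESeq2 1.42.0, other scalings and filters, a replicate block, leaving out each library, and GC, length and satellite glia adjustments added after seeing the data.

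The members, lists and tests were chosen with earlier results of these data known. Named genes were the members, genes of the myelin, Schwann transcription and neuregulin lists with an unadjusted p-value under 0.05, the most abundant gene and any gene without reads of each marker list, and the 10 genes most like Sox10. Genes like the other members, and further genes of the marker lists, were named after their values were seen. Some genes of the myelin list are not reported here and were left out of its counts and sums. Symbols Ncmap and Adgrg6 had no row under that name. Python 3.11.15, pandas 2.3.3 and matplotlib 3.10.9 were used.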

Additional observations from a re-analysis of the deposited data

Results flagged for a closer look

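In groups of 4 libraries of one sex, a library was singled out where its gap to the nearest other, divided by the range of the group, exceeded Dixon's 95% critical value. Of 38 groups examined 6 did so, where chance gives about 1.9. The Mbp level in male replicate 1 was 6.95 on the log2(CPM + 1) scale against 7.44 to 7.50 in the other males (gap over range 0.8934). Mal was likewise low in male replicate 1, at 4.95 against 5.38 to 5.44 (0.8913). In females, Mal was high in replicate 4, at 6.05 against 5.64 to 5.67 (0.929). The summed listed myelin genes other than the members were low in female replicate 3, at 10.51 on the log2 CPM scale against 10.67 to 10.69 in the other females (0.8887). Cd9 gave 79.5% of that sum, and without it female replicate 3 was the highest female at 432 CPM and female replicate 4 the lowest at 217 CPM. The summed macrophage genes of male replicate 1 were at 1.98 on the log2 CPM scale against 3.08 to 3.25 (0.863). The summed pan-neuronal genes of female replicate 4 were at 14.6 on the log2 CPM scale against 14.21 to 14.23 (0.9385). No cause of these gaps was tested.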

How the results depend on the processing

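Over 15 alternative fits, the log2 fold change of each member but Egr2 kept its sign, from 1.40 to 1.90 for Sox10, 0.34 to 0.50 for Mbp and for Mal, 0.13 (without female replicate 4) to 0.33 for Cnp, 0.37 (without female replicate 2) to 0.80 for Prx and -0.20 (without female replicate 4) to -0.046 (without female replicate 3) for Pmp22. Egr2 kept it in 13 and turned to -0.0998 with limma-voom and -0.33 without female replicate 3, with 0.72 as its highest value (without male replicate 2). Relative to satellite glia, Cnp turned to -0.17 and Egr2 to -0.39, or -0.11 with male replicate 1 left out as well. Over all genes, 5 passed after adjustment with edgeR, 42 with DESeq2, and 1 (without male replicate 4) to 78 (without female replicate 1) when a library was left out, and 884 had an unadjusted p-value under 0.05, with 581 (without male replicate 1) to 1447 (without female replicate 4) when a library was left out. Of the 3 Schwann lists, 3 of 29 genes were higher in females at that threshold (4.43% of all genes). It was 5 of 29 with limma-voom (3.97%) and 6 of 41 with no filter on low counts (4.13%). When a library was left out, 2 to 6 were higher in females. The ends were 2 of 30 without female replicate 2 (3.85%), 2 of 31 without male replicate 1 (3.15%) and 6 of 29 without female replicate 4 (5.68%). In the male direction 0 were called (2.64% of all genes), or 0 to 2 when a library was left out. That was 1 of 30 without female replicate 1 (495 of 12567 genes) and 2 of 29 without female replicate 4 (724 of 12718 genes). Members that did not overlap numbered 3 (5.47% of all genes), or 3 to 5 when a library was left out (5 without male replicate 3). The share of all genes was not taken for those settings, in which fewer libraries per sex make no overlap easier to reach. When a library was left out, r ranged from 0.927 to 0.972 for Mbp with Mal, from -0.0075 (without male replicate 1) to 0.757 for Sox10 with Mbp, from 0.895 to 0.992 for Egr2 with Egr1, and from -0.377 (without female replicate 4; -0.023 without female replicate 3) to 0.899 (without male replicate 1) for Pmp22 with Mbp. The cause of these changes was not tested.

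Deviations of female and male libraries with the same replicate number correlated at 0.12, -0.13, 0.16 and 0.016. Female replicates 1 and 4 correlated best with the male of their own number, and female replicates 2 and 3 with another male. Correlations this weak over few libraries cannot show whether the replicate numbers of the labels pair the sexes. With the replicate number as a block, 1 gene, Sox10, passed after adjustment and 5 of 29 genes of the Schwann lists were higher in females at an unadjusted p-value under 0.05 (4.01% of all genes). Depth limits Mag, with 0 to 14 reads per library, and Egr2, with 8 to 62 reads, and 4 libraries per sex limit every comparison.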
